A study of Mus musculus with 65 samples.

Results

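Mouse embryonic stem cells carry 2 large imprinted clusters whose RNAs were followed here: the Dlk1-Dio3 cluster on chromosome 12 (Dlk1, Meg3, Rtl1, Rian, Mirg and Dio3) and the Igf2-H19 cluster on chromosome 7. The 8 genes were chosen by name because Rian, Meg3 and H19 were low in 2 edited cell lines of this series, so the levels in edited against wild-type cells are described without a test. All 8 symbols were found among the 24465 symbols of the count files. Stem cells kept in leukemia inhibitory factor (day 0) were compared with embryoid bodies, aggregates of differentiating cells, grown on rotation without that factor in 10 µM all-trans retinoic acid (days 3 and 6). PolyA RNA was sequenced from wild-type cells at days 0, 3 and 6 in 2019 (2 libraries a day). In 2020 it was sequenced at days 0 and 6 from wild-type cells (1 library at day 0, 2 at day 6), H3.3A knockout cells (2 and 2) and H3.3K27A cells (2 and 2), the last named for alanine in place of lysine at residue 27 of the histone variant H3.3; both edited lines were made with CRISPR/Cas9, and the sources used here do not give the number of clones. Chromatin immunoprecipitation was sequenced only from wild-type cells at days 0 and 6, in biological duplicates, with a custom antibody to H3.3K27me3 and antibodies to H3K27me3, H3.3 and H3.

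Imprinted genes are transcribed mainly from the copy inherited from 1 parent. Dlk1, Rtl1, Dio3 and Igf2 are known as paternally expressed protein genes, and Meg3, Rian, Mirg and H19 as maternally expressed noncoding RNAs; Meg3, Rian and Mirg are thought to be made from a long shared transcription unit that also hosts microRNAs. A control element between Dlk1 and Meg3, and another upstream of H19, are methylated on the paternal copy and set which genes are used; the protein ZFP57 binds methylated TGCCGC, and CTCF binds the unmethylated element upstream of H19. H3K27me3 is the mark placed by Polycomb repressive complex 2 (PRC2), and H3.3 is a form of histone H3 that cells can add to chromatin at any stage of the cell cycle. The counts do not separate the parental copies, so no statement on imprinting itself can be drawn from them.

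Sequences are shown first for the control elements, because peaks described further on lie over them, and for the promoters of Dlk1 and Rian, of which only that of Dlk1 lay under peaks. All are from mm10 (GRCm38). The first is the 300 bases at the summit of the H3.3 peak between Dlk1 and Meg3 (day 6, duplicate 1; chr12:109528221-109528520, plus strand, intergenic, 12.63 kb before the Meg3 start), with TGCCGC on the printed strand in capitals.
H3.3 summit between Dlk1 and Meg3: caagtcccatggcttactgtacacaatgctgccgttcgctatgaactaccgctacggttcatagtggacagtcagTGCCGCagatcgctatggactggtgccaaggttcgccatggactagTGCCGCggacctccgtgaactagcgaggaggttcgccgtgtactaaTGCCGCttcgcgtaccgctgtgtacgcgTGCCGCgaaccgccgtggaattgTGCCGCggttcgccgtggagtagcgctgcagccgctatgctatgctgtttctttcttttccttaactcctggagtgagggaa
The hexamer TGCCGC, searched on both strands, was found 5 times in these 300 bases and 7 times in the 2547 bases (chr12:109526826-109529372) that H3.3 peaks of both day 0 duplicates shared. Of 18636 windows of 300 bases at the highest summits of that library's H3.3 peaks, 388 (2.08%) held at least 1 match and 1 (0.00537%), the window printed here, held 5. In the other H3.3 libraries the highest summit lay outside these 300 bases. It was at chr12:109527904 and chr12:109527823 in the day 0 duplicates and at chr12:109527770 in duplicate 2 of day 6.

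The second set is 4 matches to CCGCNNGGNGGCAG, a core of the CTCF motif searched on both strands, found under the H3K27me3 peak over the H19 start (day 0, duplicate 2; chr7:142576845-142582750). Each is printed as 30 bases of the minus strand, on which H19 lies, with the match in capitals; matches 1, 2 and 4 overlap a TGCCGC and match 3 does not.
H19 upstream match 1: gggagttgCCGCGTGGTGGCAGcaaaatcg
H19 upstream match 2: cagggttgCCGCACGGCGGCAGtgaagtct
H19 upstream match 3: ggatgctaCCGCGCGGTGGCAGcatactcc
H19 upstream match 4: agacgatgCCGCGTGGTGGCAGtacaatac
They lie at chr7:142582026-142582055, chr7:142581782-142581811, chr7:142580756-142580785 and chr7:142580301-142580330, which is 3904, 3660, 2634 and 2179 bases before the H19 start. Of 23581 windows of the same 5906 bases centred on gene starts, 135 (0.572%) held at least 1 match and 0 held 4. The peak is not centred on the H19 start, and a window that is would leave out matches 1 and 2. These shares are therefore not a like-for-like background for the 4 matches.

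The third pair is the 250 bases before the starts of Dlk1 (chr12:109452573-109452822) and Rian (chr12:109603695-109603944), both on the plus strand, from the RefSeq promoter table, with CG in capitals.
Dlk1 promoter: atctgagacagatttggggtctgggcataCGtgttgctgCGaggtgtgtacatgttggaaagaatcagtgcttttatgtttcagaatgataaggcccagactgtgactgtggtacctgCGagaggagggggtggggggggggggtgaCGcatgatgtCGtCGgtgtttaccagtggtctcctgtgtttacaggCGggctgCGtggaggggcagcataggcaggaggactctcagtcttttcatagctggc
Rian promoter: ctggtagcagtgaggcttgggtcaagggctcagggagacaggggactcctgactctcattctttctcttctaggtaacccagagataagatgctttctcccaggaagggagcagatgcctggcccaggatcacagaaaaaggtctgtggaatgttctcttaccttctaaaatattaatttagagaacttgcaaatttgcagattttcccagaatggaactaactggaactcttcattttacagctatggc
The Dlk1 stretch held 8 CG and the Rian stretch 0. Over the 300-base promoters of the table, which has entries for 6 of the 8 genes, Dio3 had 25 CG, Mirg 10, Dlk1 9 and Rian 0, the start of Meg3 13 and its inner promoter 1, and the 4 Igf2 promoters 2, 14, 24 and 7. The median over 32851 promoters was 7 (quartiles 3 and 20), so Dio3 and the third Igf2 promoter lay above the upper quartile, and Rian, the inner Meg3 promoter and the first Igf2 promoter below the lower.

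The libraries held 6965704 to 12711698 gene counts in 2019 and 14270549 to 22032871 in 2020. H3f3a, which encodes H3.3A, stood at 114 to 129 CPM (counts-per-million: gene counts scaled to a common library size with TMM, each year by itself) in the 2020 wild-type libraries, 20.9 to 23.1 in the knockout and 20.4 to 24.2 in H3.3K27A, so it was low in both edited lines. H3f3b, the other H3.3 gene, stood at 797 to 894 CPM in wild type of 2020, 872 to 1134 in the knockout and 499 to 599 in H3.3K27A. It was thus lower in H3.3K27A only. The summed level of 10 pluripotency markers fell from 6537 to 8083 CPM at day 0 to 207 to 534 at day 6 over all lines. In 2020 it was higher at day 6 in the knockout (339 to 534) than in wild type (207 to 237) and H3.3K27A (249 to 282). The H3.3A knockout libraries of day 6 stood apart: their duplicates differed by a chi-square of 47.0 per gene against 2.30 to 8.32 in the other groups. The sum of 15 primitive and visceral endoderm markers was 13130 to 21685 CPM in them, 4196 to 5368 in wild type and 3356 to 4266 in H3.3K27A. In bulk RNA, fewer cells of a type and less RNA per cell cannot be told apart. The labels do not say that RNA duplicates came from separate cultures, so each p-value speaks of the spread between libraries, which may be technical.

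In the wild-type time course of 2019 the paternally expressed genes rose steeply. Dlk1, a membrane ligand related to the Notch ligands, was at 1.29 and 1.22 CPM at day 0, 131 and 128 at day 3, and 159 and 191 at day 6. Igf2, the growth factor insulin-like growth factor 2, was at 8.36 and 10.5 CPM, then 569 and 621, then 1473 and 1578. For both genes the days did not overlap. In edgeR's quasi-likelihood test with Benjamini-Hochberg adjustment over all genes, Dlk1 rose by 6.69 ± 0.17 (SE, log2, n = 2 against 2; adjusted p = 6.92e-12) from day 0 to day 3 and by a further 0.43 ± 0.09 (adjusted p = 0.000883) to day 6. Igf2 rose by 5.94 ± 0.11 (adjusted p = 5.55e-13) and then by 1.36 ± 0.08 (adjusted p = 1.45e-08). Most of the rise of Dlk1 was thus over by day 3, while the level of Igf2 still more than doubled after it.

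Dio3, the deiodinase that inactivates thyroid hormone, and Rtl1, a retrotransposon-derived protein of placenta and muscle, were far lower. Dio3 was at 0.482 and 0.281 CPM at day 0, 2.91 and 2.10 at day 3 and 4.73 and 5.21 at day 6, without overlap between days. It rose by 2.77 ± 0.49 (log2, adjusted p = 0.000230) to day 3 and by 0.99 ± 0.27 (adjusted p = 0.00730) after it; the second step was not called with DESeq2 (adjusted p = 0.0908) or without replicate 2 of day 3 (adjusted p = 0.0893). Rtl1 was at 0.161 and 0.562 CPM, then 1.86 and 2.18, then 1.33 and 1.92. It rose by 2.27 ± 0.53 (adjusted p = 0.00194) to day 3, and days 3 and 6 overlapped. Rtl1 has an antisense transcript and Dio3 and Igf2 have overlapping antisense genes; whether strand was used in counting is not given in the sources used here, so reads from opposite strands cannot be told apart.

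Among the maternally expressed RNAs H19 rose with Igf2 but not at the same pace. H19, a noncoding RNA of embryonic tissues, was at 37.3 and 45.9 CPM at day 0, 2452 and 2414 at day 3, and 2113 and 2295 at day 6. It rose by 5.85 ± 0.10 (log2, adjusted p = 4.85e-13) to day 3, and both day 6 libraries lay below both of day 3 by 0.14 ± 0.08 (log2), a step that did not pass (adjusted p = 0.134) except with no filter on low counts (0.0429), from these 2 groups alone (0.00275) or without either day 0 library (0.00241 and 0.00246). Meg3 was at 16.7 and 17.9 CPM, then 27 and 26.1, then 51.2 and 39.4. Its rise was small and spread over both steps, 0.61 ± 0.14 (log2, adjusted p = 0.00222) and 0.78 ± 0.12 (adjusted p = 0.000166).

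Rian and Mirg, the RNAs downstream of Meg3 that host small nucleolar RNAs and microRNAs, moved least. Rian was at 23.0 and 28.7 CPM at day 0, 33.4 and 33.6 at day 3, and 36.4 and 36.9 at day 6. It rose by 0.35 ± 0.12 (log2, adjusted p = 0.0152) to day 3, a call lost with DESeq2 (adjusted p = 0.0758) and without day 0 replicate 1 or either day 3 library (0.0623 to 0.0981), and by 0.48 ± 0.12 (adjusted p = 0.00193) over 6 days. Mirg was at 0.964 and 1.59 CPM, then 2.51 and 1.88, then 2.58 and 2.19. Its difference over 6 days, 0.83 ± 0.38 (log2), did not pass (adjusted p = 0.0618; 0.0499 without day 0 replicate 2). The Dlk1-Dio3 window of 848.3 kb holds 58 annotated microRNA hairpins, of which 14 lie inside Mirg, 3 inside Rian and 1 inside Meg3 on the same strand; polyA libraries do not measure the mature microRNAs.

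Of the 8 genes, 7 were called higher at day 3 than at day 0, where 37.6% of 13593 tested genes were called higher. From day 3 to day 6, 4 of 8 were called higher against 29.4% of all genes, and over the 6 days 7 of 8 against 41.4%. The median change of the 8 genes was 2.52, 0.29 and 2.84 (log2) in these 3 comparisons, and that of all genes 0.06, −0.01 and 0.09. In the authors' deposited table for the same libraries, day 6 over day 0, Dlk1 was at 6.56, Igf2 at 7.27, H19 at 5.70, Dio3 at 2.81 and Meg3 at 1.27 (log2, all with an adjusted p under 0.05), and Rian at 0.29 (adjusted p = 0.106), Rtl1 at 0.92 (0.248) and Mirg at 0.64 (0.274).

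**Figure D1:**
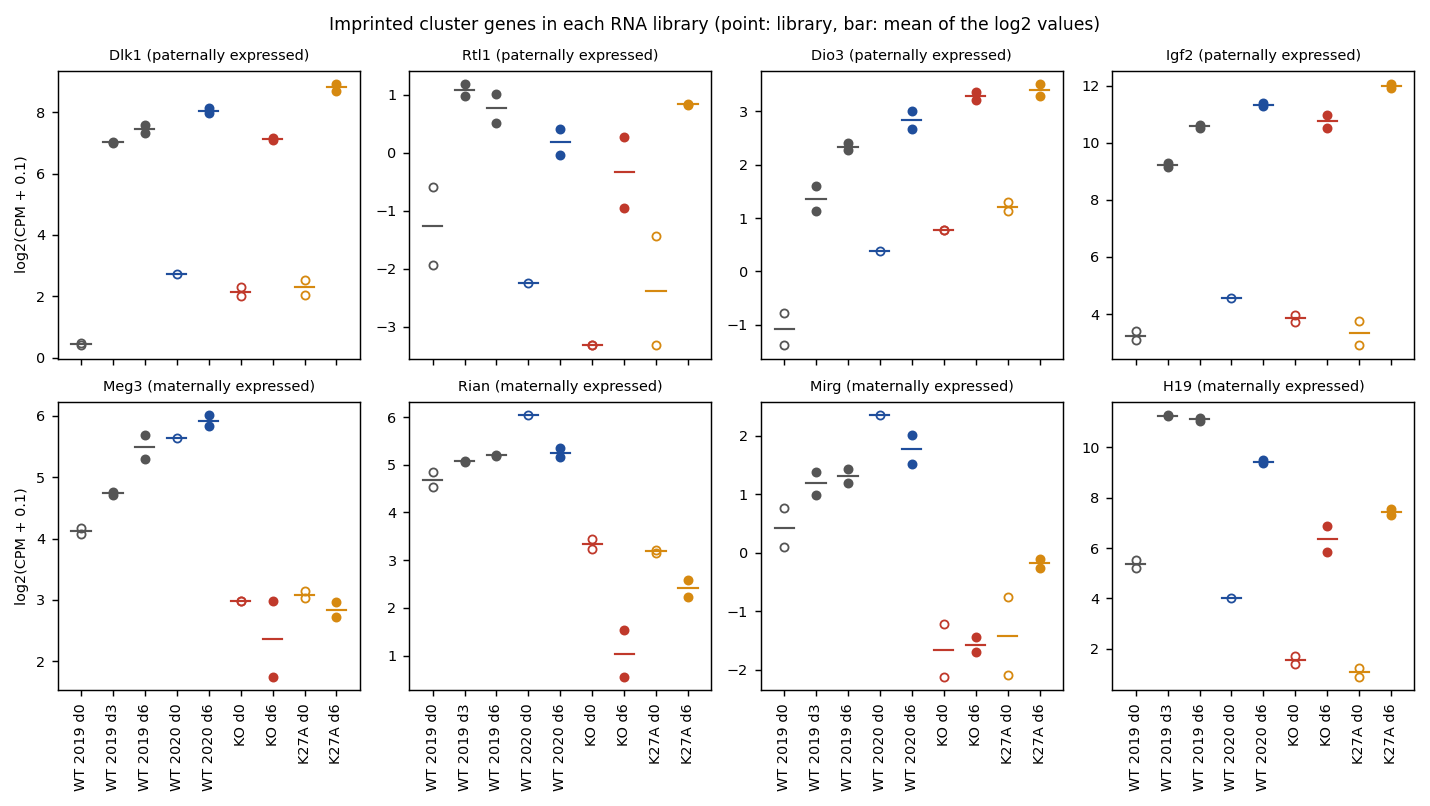
Each point is 1 RNA library and each bar the mean of a group, as log2(CPM + 0.1), with day 0 as open points and the 2 years scaled separately; the upper panels hold the paternally expressed genes and the lower ones the maternally expressed RNAs. Meg3, Rian and Mirg are low in both edited lines at both days, while Dlk1, Dio3 and Igf2 climb in every line.

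In 2020 the protein genes again rose by day 6 in all 3 lines, while Rian fell. In wild type, Dlk1 went from 6.46 CPM to 249 and 283, and Igf2 from 23.4 to 2505 and 2672. In the knockout Dlk1 went from 4.83 and 3.92 CPM to 137 and 144, and Igf2 from 13.1 and 15.5 to 1454 and 2022. In H3.3K27A Dlk1 went from 4.03 and 5.69 CPM to 487 and 417, and Igf2 from 7.38 and 13.5 to 4285 and 3869. No day 6 library overlapped a day 0 library for either gene. Dlk1 rose by 5.36 ± 0.21, 5.01 ± 0.16 and 6.55 ± 0.17 (log2) in wild type, knockout and H3.3K27A, with edgeR adjusted p of 4.05e-08, 7.35e-09 and 2.77e-09. Igf2 rose by 6.79 ± 0.36, 6.92 ± 0.26 and 8.63 ± 0.29, with adjusted p of 1.97e-07, 1.71e-08 and 8.50e-09. The single wild-type library of day 0 is assumed to vary like the other groups.

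H19 rose in every line from levels that differed. It went from 16.2 CPM to 659 and 714 in wild type, from 2.58 and 3.20 to 117 and 56.6 in the knockout, and from 1.75 and 2.28 to 158 and 189 in H3.3K27A. The rises were 5.40 ± 0.43, 4.89 ± 0.36 and 6.44 ± 0.39 (log2; adjusted p = 2.78e-06, 1.06e-06 and 2.91e-07). Dio3 went from 1.21 CPM to 6.28 and 7.93 in wild type, from 1.61 and 1.60 to 10.3 and 9.18 in the knockout, and from 2.08 and 2.36 to 9.64 and 11.4 in H3.3K27A, rises of 2.55 ± 0.28, 2.59 ± 0.21 and 2.24 ± 0.21 (adjusted p = 2.81e-05, 2.07e-06 and 5.09e-06). The 3 changes of Dio3 thus lay between 2.24 and 2.59.

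Rtl1 rested on few counts: 2 in the wild-type library of day 0 against 52 at day 6, which is 9.71-fold after scaling (exact 95% interval for counting error 2.56 to 82.3). In the knockout it had 0 counts at day 0 and 33 at day 6, at least 8.88-fold higher with the floor set at 3 counts over the group. In H3.3K27A it was at 0.269 and 0 CPM at day 0 and at 1.69 and 1.67 at day 6, and rose by 3.47 ± 0.77 (log2, adjusted p = 0.00298). The wild-type call (adjusted p = 0.0225) was lost without day 6 replicate 1 (0.0681).

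Rian was the 1 gene called lower at day 6 in all 3 lines of 2020, opposite to its small rise in 2019. It stood at 65.5 CPM at day 0 and 40.7 and 35.5 at day 6 in wild type, at 9.28 and 10.7 and then 1.36 and 2.79 in the knockout, and at 9.20 and 8.78 and then 4.60 and 5.88 in H3.3K27A. In each line both day 6 libraries were below every day 0 library. It fell by 0.78 ± 0.23 (log2, adjusted p = 0.0130), 2.24 ± 0.26 (adjusted p = 2.87e-05) and 0.79 ± 0.24 (adjusted p = 0.0127). The wild-type call was lost without day 6 replicate 2 (adjusted p = 0.0766), and that of H3.3K27A without replicate 1 of day 0 (0.0650) or of day 6 (0.0973).

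Meg3 did not pass in any line of 2020. It was at 49.8 CPM and then 56.7 and 64.2 in wild type (log2 0.28 ± 0.31, adjusted p = 0.432), at 7.79 and 7.85 and then 3.25 and 7.80 in the knockout (−0.48 ± 0.31, adjusted p = 0.174), and at 8.73 and 8.05 and then 6.49 and 7.70 in H3.3K27A (−0.25 ± 0.30, adjusted p = 0.469). Without knockout day 6 replicate 2 the knockout value was −1.27 (adjusted p = 3.61e-05), and the wild-type value of 0.28 passed without either knockout library of day 6 (0.0247 and 0.0259). Mirg was at 4.98 CPM and then 2.77 and 3.92 in wild type (−0.58 ± 0.37, adjusted p = 0.188), at 0.129 and 0.332 and then 0.209 and 0.266 in the knockout, and at 0.134 and 0.488 and then 0.826 and 0.736 in H3.3K27A. The last difference, 1.38 ± 0.56, passed narrowly (adjusted p = 0.0462), was not called by DESeq2 (0.0943), and was lost without any 1 of 5 libraries: H3.3K27A day 0 replicate 1 (0.327), either of H3.3K27A day 6 (0.132 and 0.0807) or either of wild-type day 6 (0.0518 and 0.0524).

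In wild type of 2020, 5 of 8 genes were called higher and 1 lower, where 36.0% of 14760 genes were called higher and 34.8% lower. In the knockout 5 were higher and 1 lower against 40.8% and 36.4%, and in H3.3K27A 6 were higher and 1 lower against 39.5% and 37.2%. The median change of the 8 genes was 2.87, 3.74 (2.87 with Rtl1 at its bound) and 2.86 (log2), and that of all genes 0.08, 0.11 and 0.07.

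**Figure D2:**
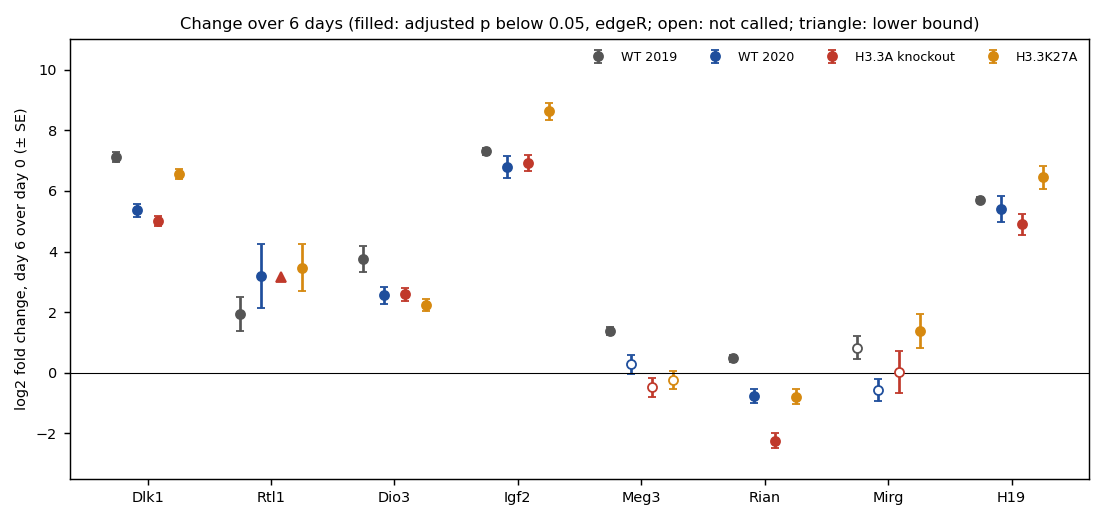
Points are log2 fold changes of day 6 over day 0 with standard errors in 4 series of libraries; filled points passed an adjusted p of 0.05 and the triangle for Rtl1 in the knockout is a lower bound. Dlk1, Dio3, Igf2 and H19 lie well above 0 throughout, and Rian lies above 0 in 2019 and below it in the 3 lines of 2020.

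Ratios of counts within a library do not depend on scaling between libraries, though they are not per length. H19 had 446 and 438 counts per 100 Igf2 counts at day 0 of 2019, 431 and 389 at day 3, and 143 and 145 at day 6. In wild type of 2020 the ratio was 69.3 at day 0 and 26.3 and 26.7 at day 6. It was 19.6 and 20.6, then 8.04 and 2.80, in the knockout, and 23.6 and 16.9, then 3.69 and 4.89, in H3.3K27A. The ratio was lower at day 6 than at day 0 in each of the 4 series, and lower in every edited library than in every wild-type library of the same day and year; since H19 was among the genes that chose the set, the second statement is a description.

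Meg3 had 1300 and 1469 counts per 100 Dlk1 counts at day 0 of 2019, 20.6 and 20.4 at day 3 and 32.2 and 20.6 at day 6. In 2020 the wild type had 770 and then 22.8 and 22.7, the knockout 161 and 200 and then 2.37 and 5.42, and H3.3K27A 217 and 141 and then 1.33 and 1.85. Meg3 counts thus exceeded Dlk1 counts in every day 0 library and were below them in every library of days 3 and 6. Rian per 100 Meg3 counts varied far less: 138 and 160, 124 and 129, and 71.0 and 93.7 at days 0, 3 and 6 of 2019; 131 and then 71.8 and 55.3 in wild type of 2020; 119 and 137 and then 41.9 and 35.8 in the knockout; and 105 and 109 and then 70.9 and 76.4 in H3.3K27A. Every day 6 library had fewer Rian counts per Meg3 count than the day 0 libraries of its series.

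**Figure D3:**
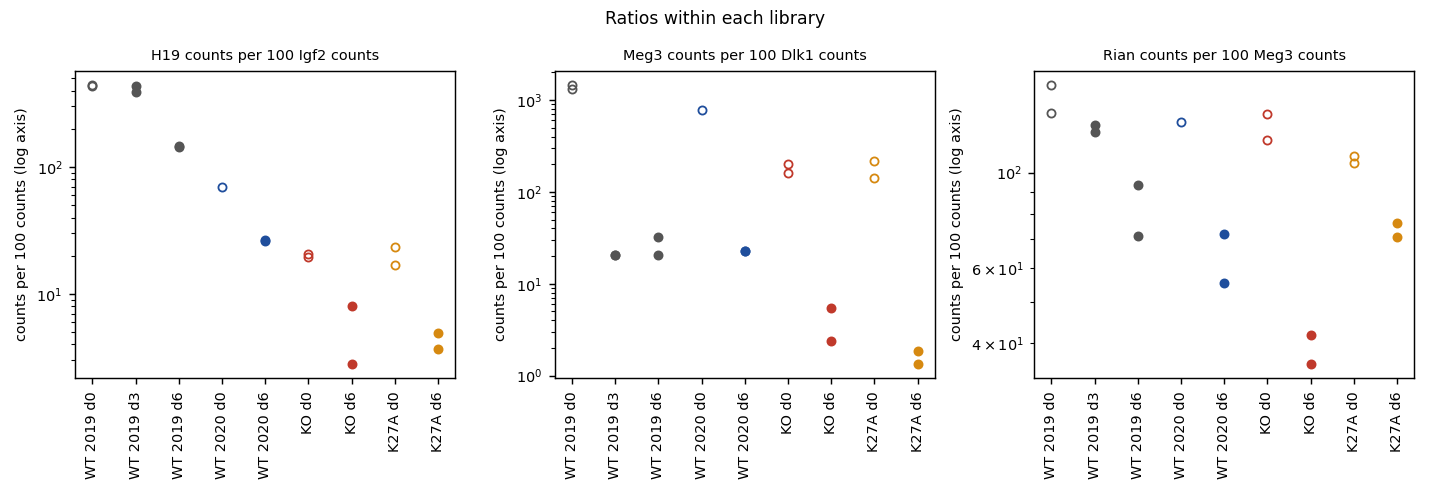
Each point is the ratio of 2 genes' counts in 1 library, on log axes, with day 0 open. H19 per 100 Igf2 runs from 446 at day 0 of 2019 down to 2.80 in the knockout at day 6, while Rian per 100 Meg3 stays between 35.8 and 160.

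The contrast that chose the genes, edited against wild-type cells of 2020, showed the maternally expressed RNAs low in both lines and Dlk1, Igf2 and Dio3 closer to wild type, on either side of it; these values have no test here. Meg3 stood at 15.7% and 15.8% of the wild-type level in the knockout at day 0 and at 17.5% and 16.2% in H3.3K27A, and at 5.37% and 12.9%, and 10.7% and 12.7%, of the wild-type mean at day 6. Rian stood at 14.2% and 16.4%, and 14% and 13.4%, at day 0, and at 3.57% and 7.33%, and 12.1% and 15.4%, at day 6. Mirg stood at 2.58% and 6.65%, and 2.69% and 9.79%, at day 0, and at 6.26% and 7.95%, and 24.7% and 22.0%, at day 6. H19 stood at 15.9% and 19.8%, and 10.8% and 14%, at day 0, and at 17% and 8.24%, and 23.1% and 27.6%, at day 6. No edited library reached a wild-type library of its day for any of these 4 RNAs, of which Meg3, Rian and H19 chose the set. The share of all genes separated in this way was not computed, so the separation is only a description.

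The fitted differences from wild type were −2.67 and −2.57 (log2) for Meg3 at day 0 in the knockout and H3.3K27A and −3.43 and −3.09 at day 6, and −2.71, −2.86, −4.17 and −2.87 for Rian in the same order. For Dlk1 they were −0.57, −0.43, −0.92 and 0.76, for Igf2 −0.70, −1.18, −0.57 and 0.66, and for Dio3 0.41, 0.87, 0.45 and 0.56. They were −4.36, −4.04, −3.76 and −2.08 for Mirg and −2.48, −3.02, −2.99 and −1.98 for H19. Rtl1 had 2 counts in wild type, 0 in the knockout and 4 in H3.3K27A at day 0, too few for a fold, and was at −0.43 and 0.66 at day 6, where the knockout overlapped wild type. Dlk1 and Igf2 were thus below wild type in the knockout and above it in H3.3K27A at day 6. For scale, 0.122% and 1.73% of all genes were called in either direction at day 0 in the knockout and in H3.3K27A, and 11.4% and 2.04% at day 6. The day 0 values rest on a single wild-type library. Set against wild type of 2019, a different sequencing run, Meg3 was at −1.15 and −1.04 at day 0 and −3.04 and −2.69 at day 6, Rian at −1.38, −1.53, −4.13 and −2.82, Mirg at −2.46, −2.15, −3.31 and −1.62, and H19 at −3.85, −4.39, −4.69 and −3.68. The direction of these 4 RNAs was the same with either wild type, whereas Dlk1 at day 0 turned to 1.80 and 1.95 and Igf2 to 0.58 and 0.10, and Igf2 in the knockout at day 6 to 0.16.

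Other transcripts moved with the low maternal RNAs. H3f3a was low in both edited lines, as given above. So were 3 of the 4 Y-linked genes looked at: Uty, a histone demethylase gene, stood at 34.7 to 48.1 CPM in wild type of 2020, 0.902 to 2.08 in the knockout and 0.488 to 0.637 in H3.3K27A, Ddx3y, an RNA helicase gene, at 42.6 to 49.8, 4.26 to 5.25 and 2.05 to 3.48, and Eif2s3y, a translation factor gene, at 1.48 to 2.09, 0.0644 to 0.399 and 0 to 0.392. The other, Kdm5d, was not lower but rested on few counts, 4 to 14 in each library of 2020. It stood at 0.436 to 0.501 CPM in wild type, 0.258 to 0.576 in the knockout and 0.403 to 0.686 in H3.3K27A. The part of these differences between the lines in the levels of Meg3, Rian, Mirg and H19 was not tested.

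The edited lines differed from each other at day 6, with Dlk1, Rian, Igf2 and H19 higher in H3.3K27A. This contrast shares its libraries with the one that chose the genes. At day 0, 0 of 8 genes were called by edgeR (0 at an unadjusted p under 0.05, and 0 by DESeq2), where 1.27% of all genes were called; the fitted differences ran from −0.55 for H19 to 0.46 for Dio3, with Rtl1 at 4 counts against 0. At day 6, 4 of 8 were called higher against 9.03% of all genes: Dlk1 by 1.69 ± 0.12 (log2, adjusted p = 0.000107), Rian by 1.30 ± 0.27 (0.0101), Igf2 by 1.23 ± 0.20 (0.00315) and H19 by 1.00 ± 0.26 (0.0258). In each of these genes both H3.3K27A libraries were above both knockout libraries, at the CPM given above. Mirg was at 1.68 ± 0.53 (adjusted p = 0.0531), Rtl1 at 1.10 ± 0.52 (0.179), Meg3 at 0.34 ± 0.30 (0.480) and Dio3 at 0.11 ± 0.17 (0.697).

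These day 6 calls leaned on the libraries in the fit. With the 2 groups alone Dlk1 stayed called, while Rian (adjusted p = 0.152), Igf2 (0.0691) and H19 (0.191) did not. Rian was lost without H3.3K27A day 6 replicate 2 (0.0727), and H19 without either knockout library of day 0 (0.0502 for both) or either H3.3K27A library of day 6 (0.0876 and 0.144). Without knockout day 6 replicate 2, Meg3 (1.12, adjusted p = 0.000375) and Rtl1 (1.99, 0.0139) joined. Mirg passed with RLE scaling (0.04998), with no filter on low counts (0.0326), and without either H3.3K27A library of day 0 (0.0459 and 0.0462). The endoderm markers, 12 of 15 of which were lower in H3.3K27A than in the knockout at day 6, moved with this difference, and their part in it was not tested.

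A further comparison was chosen after the data were seen, on libraries shared with the contrast that chose the genes. In it, the change from day 0 to day 6 was compared between the edited lines. It was larger in H3.3K27A for Dlk1 by 1.55 ± 0.24 (log2, adjusted p = 0.00791) and for Igf2 by 1.71 ± 0.33 (0.0200), and the fall of Rian was smaller by 1.45 ± 0.36 (0.0469); 5.39% of all genes were called in this comparison. H19 (1.55 ± 0.61, adjusted p = 0.179), Meg3 (0.23 ± 0.43, 0.809), Mirg (1.37 ± 0.92, 0.440) and Dio3 (−0.35 ± 0.30, 0.547) did not pass, nor did Rtl1 (0.448), whose fitted difference has no size to give because the knockout had 0 counts at day 0. The number of genes called ranged from 0 to 5 as each library was left out: Dlk1 was lost without knockout day 0 replicate 1 (adjusted p = 0.0601), Igf2 without any 1 of 5 libraries of the edited lines (0.0542 to 0.106), namely both of knockout day 0, replicate 1 of H3.3K27A day 0 and both of H3.3K27A day 6, and Rian without any 1 of 8 (0.0815 to 0.161), that is, each of the 10 libraries left out in turn but the 2 of knockout day 6, and with the replicate number as a block (0.0709). H19 was gained without either knockout library of day 6 (0.000178 and 0.0108), and Meg3 without replicate 2 (0.00674).

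Over the 17 libraries, the correlation of log2 CPM across 15342 genes was used to find the genes most like the members; the libraries share lines, days and years, so these values only describe. For Meg3 the closest were Gm35612 (r = 0.92), a noncoding RNA with at most 18 counts in a library, then Rian (0.92) and Mirg (0.89), and next Uty (0.86) and H3f3a (0.85). For Rian they were Meg3 (0.92), H3f3a (0.87), Pcyox1l (0.86), Ddx3y (0.83) and Mirg (0.82). For Igf2 they were Zfp651, Fam13a and Zim1 (0.99 each), the last an imprinted zinc finger gene near Peg3, with Dlk1 at rank 75 (0.98) and H19 at rank 3930 (0.78). For H19 they were Atxn1l (0.97), Cyp2j6 (0.96) and Ephb4 (0.96), with Igf2 at rank 1779. Igf2 thus ran closer to Dlk1, on another chromosome, than to its neighbour H19.

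Of the other imprinted genes most of those tested were higher after 6 days, and 1 to 6 of 40 were called lower in an edited line than in wild type. Of 46 such genes, 25 of 38 tested were called higher and 7 lower at day 6 than at day 0 in 2019. In 2020, 23 of 40 were higher and 9 lower in wild type, 24 and 8 in the knockout, and 27 and 9 in H3.3K27A. Among all genes, 41.4% were called higher and 36.6% lower in 2019. The shares were 36.0% and 34.8% in wild type of 2020, 40.8% and 36.4% in the knockout, and 39.5% and 37.2% in H3.3K27A. Against wild type, 1 was called lower in the knockout at day 0 (0.0949% of all genes were), which was Nnat, a neuronal membrane protein gene (−2.09 ± 0.27, log2, adjusted p = 0.0271), and 3 in H3.3K27A, where 1.17% of all genes were (Nnat at −1.79, Sfmbt2 at −1.11 and Peg3 at −0.58). At day 6, 6 were lower and 1 higher in the knockout, against 4.42% and 6.98% of all genes (among them Nnat at −1.40, Mest at −1.01 and Zdbf2 at −0.73, with Sfmbt2 at 1.12), and 2 lower in H3.3K27A, against 0.908% (Nnat at −1.09 and Sfmbt2 at −0.97). Nnat was thus called lower in both lines at both days. These counts turned on single libraries: those of day 0 went to 0 in the knockout without either library of its day 0 or any 1 of H3.3K27A or of wild-type day 6, and in H3.3K27A to 0 without either of its own day 0 libraries and to 7 without either knockout library of day 6. The count of 6 in the knockout at day 6 went to 16 without its replicate 2, to 9 without its replicate 1, and to 3 without wild-type day 6 replicate 1; the 2 in H3.3K27A at day 6 went to 0 without any 1 library of wild-type or H3.3K27A day 6. In H3.3K27A at day 6, 9 were called higher and 5 lower when both knockout libraries of day 6 were left out of the fit.

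Few genes flanking the clusters were called between an edited line and wild type. Of 12 around the Dlk1-Dio3 cluster, those called against wild type were Mok in H3.3K27A at day 0 (−0.82), Wars in the knockout at day 6 (0.82) and Evl in H3.3K27A at day 6 (0.32). Of all genes, 1.73%, 11.4% and 2.04% were called in these 3 comparisons. Of 10 tested around Igf2-H19, the 1 called against wild type was Lsp1, a leukocyte actin-binding protein gene, in H3.3K27A at day 6 (1.21 ± 0.24, adjusted p = 0.0407). Between the edited lines at day 6, 1 of the 12 was lower and 1 of the 10 higher in H3.3K27A, where 9.64% and 9.03% of all genes were. Over 6 days in wild type of 2020, 2 of the 12 rose and 6 fell, among them the chaperone gene Hsp90aa1 (−3.11), and 6 of the 10 rose and 2 fell, among them Lsp1 (4.38 ± 0.47). Of all genes, 36.0% rose and 34.8% fell there.

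Of 18 tested genes of the insulin-like growth factor pathway, 8 were called higher and 10 were not called in H3.3K27A against the knockout at day 6, where 9.03% of all genes were called higher. Their median difference was 0.37 (log2) and that of all genes −0.03. The 8 were led by the binding proteins Igfbp3 (1.89 ± 0.10, adjusted p = 5.85e-05), Igfbp6 (1.73) and Igfbp5 (1.66). Against wild type at day 6, 6 were lower in the knockout, where 4.42% of all genes were (Igfbp6 at −1.32, Igfbp3 at −0.90 and Igfbp5 at −0.78). In H3.3K27A 4 were higher, where 1.13% of all genes were (Igfbp3 at 0.99, Igf1 at 0.84 and Igfbp2 at 0.68). Over 6 days in wild type of 2020, 11 rose, among them Igfbp5 (8.29 ± 0.44) and Igf1 (5.90), and 6 fell, among them Stc2 (−4.83), a stanniocalcin, and Igfbp2 (−2.64). Of all genes, 36.0% were called higher and 34.8% lower in that comparison.

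Regulators of imprints mostly fell on differentiation. Over 6 days 36.6% of all genes fell and 41.4% rose in 2019, and 34.8% fell and 36.0% rose in wild type of 2020. Of 25 tested maintenance factors, 17 fell and 5 rose over 6 days in 2019, and 20 fell and 2 rose in wild type of 2020, where Dnmt3l (−7.04 ± 0.56), Dppa3 (−6.72) and Tet1 (−5.04) fell most. Against wild type the called ones were Dppa3, a protector of maternal methylation, in H3.3K27A at day 0 (−1.65 ± 0.26, adjusted p = 0.0166), and Dnmt3l (2.00), Zfp42 (0.70) and Ehmt2 (0.38) in the knockout at day 6. Of 11 PRC2 subunits, 6 fell and 2 rose in wild type of 2020, with Jarid2 at −2.51, and those called between a line and wild type were Phf1 (0.40) and Jarid2 (−0.26) in the knockout at day 6. Of 15 Notch receptors, ligands and relatives of Dlk1, 6 rose and 4 fell in wild type of 2020, near the shares of all genes. Dlk2 (3.23 ± 0.73) was among those that rose. Both retrotransposon-derived relatives of Rtl1 that were tested, Ldoc1 (1.95) and Peg10 (1.70), rose there too.

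In wild-type chromatin at day 0 the promoters of 3 protein genes, Dlk1, Dio3 and Igf2, lay under H3K27me3 and H3.3K27me3 peaks in both duplicates; those of Rtl1 and the 4 noncoding RNAs did not. A promoter was counted when a filtered peak of the authors overlapped 1000 bases either side of the start in both duplicates, and fold enrichment is the peak caller's own value. H3K27me3 peaks lay over 3 of 8 promoters at day 0, where 17.9% of 23581 promoters were covered: Dlk1 (4.56 and 3.69), Dio3 (4.56 and 5.84) and Igf2 (5.03 and 4.76). At day 6 they lay over 2 of 8, Dio3 (4.03 and 3.54) and Igf2 (2.88 and 3.69), where 10.9% of promoters were covered, and over Dlk1 in duplicate 1 (2.59). Igf2 was lost when at least 500 bases of overlap were asked for, which left 1 of 8. This loss concerns the outermost Igf2 start (chr7:142666816), the start used in the count. That start lay outside the day 6 peaks of both duplicates (chr7:142654284-142665876 and chr7:142657671-142666495). The Igf2 promoters at chr7:142661222-142661521 and chr7:142658755-142659054 lay wholly under both peaks. Duplicate 2 of day 0 also had the H19 peak (3.23) whose motif matches are printed above.

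H3.3K27me3 peaks lay over the same 3 promoters at day 0, Dlk1 (2.21 and 2.37), Dio3 (2.90 and 3.47) and Igf2 (2.79 and 3.63), where 11.1% of promoters were covered, and over the start of Meg3 in duplicate 1 (2.56). At day 6 they lay over 0 of 8, where 2.62% of promoters were covered; these libraries had 30449762 and 34195568 tags against 71130843 and 49872422 at day 0, and the part of depth was not tested. H3.3 peaks lay over 0 of 8 promoters in both duplicates at day 0 and at day 6, where 37.5% and 25.1% were covered, and over Dlk1 in duplicate 1 of day 6 (2.24). H3 peaks lay over 0 of 8 at both days, where 5.3% and 2.12% were covered. Meg3 and Mirg, with more CG at their starts than Dlk1, were under no peak of either mark in both duplicates at day 0, and neither was Rian, with 0.

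The marks were not spread over the whole clusters. In the 848.3 kb window of the Dlk1-Dio3 cluster (chr12:109442823-110291097), H3K27me3 peaks shared by the duplicates covered 4.71% at day 0 and 2.26% at day 6, where the genome had 4.16% and 3.3%. In duplicate 1 alone the order was the opposite, 5.88% and 8.99%, and in duplicate 2 it was 6.34% and 4.25%. H3.3K27me3 covered 3.55% and 0.831% (genome 3.67% and 3.16%), and H3.3 covered 1.18% and 0.719% (genome 9.76% and 6.68%), with 1.19% and 4.37% in duplicate 1 and 2.30% and 1.15% in duplicate 2. In the 111.3 kb window of Igf2-H19 (chr7:142565529-142676816), H3K27me3 covered 12.6% and 7.37% and H3.3K27me3 13.4% and 0%, all of it in a single stretch over Igf2. The shared H3K27me3 stretch at Igf2 was 14026 bases at day 0 and 8206 bases at day 6.

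Between Dlk1 and Meg3, where the printed TGCCGC cluster lies, H3.3 peaks were present in both day 0 duplicates (chr12:109526826-109529372, enrichment 2.95, and chr12:109526067-109529581, 3.44). At day 6 duplicate 1 had a peak (chr12:109527053-109528564, 3.02), and duplicate 2 had a call of 2.00 that was not among the filtered peaks. H3.3K27me3 at day 0 shared 6594 bases there (chr12:109525141-109531734). Inside Rian, the duplicates shared 2186 bases of H3K27me3 and 5363 bases of H3.3K27me3 at day 0, and 7049 bases of H3.3K27me3 at day 6. Upstream of Dlk1, the duplicates of day 6 shared 6097 bases of H3.3 (chr12:109444279-109450375).

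**Figure D4:**
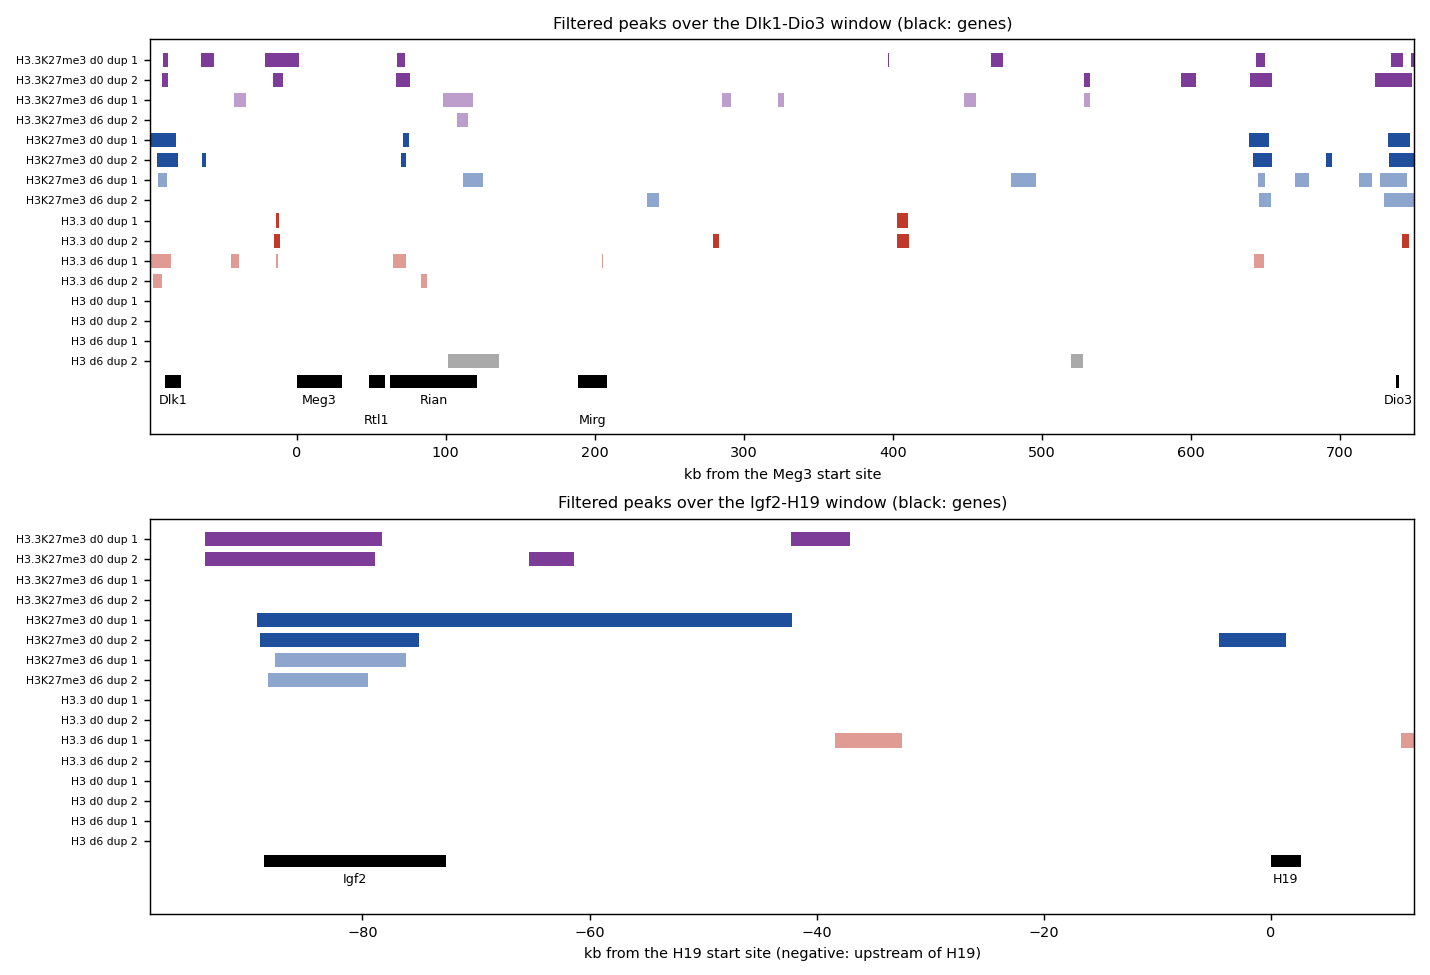
Bars are the authors' filtered peaks in each library, drawn by distance in kb from the Meg3 start (above) and the H19 start (below), with day 6 paler and genes in black. H3K27me3 and H3.3K27me3 peaks sit over Dlk1, Dio3 and Igf2 at day 0, and the H3.3 peaks of day 0 sit just before Meg3 and far downstream of Mirg.

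The authors' deposited tables of regions compared the 2 days over both duplicates. H3K27me3 over Dlk1 (chr12:109437109-109461020) had scaled read numbers of 897.0 and 917.6 at day 0 and 576.5 and 533.2 at day 6, and was higher at day 0 by 0.71 (log2, adjusted p = 8.79e-12), a change of −38.8% by day 6. Over Igf2 (chr7:142620334-142667393) the numbers were 2001 and 2053 and then 1388 and 1285 (0.60, adjusted p = 2.47e-14). Over Dio3 (chr12:110268033-110290928) they were 1121 and 1280 and then 930.0 and 813.9 (0.46, adjusted p = 1.76e-05). Of the 10491 H3K27me3 regions in the authors' deposited table, 30.5% were called higher at day 0. The region over Rian (chr12:109611195-109616555) was at 217.0 and 239.4 and then 218.7 and 180.6 and did not pass (0.19, adjusted p = 0.444). A region between Mirg and Dio3 (chr12:110180084-110195546) fell to day 6 (0.72, adjusted p = 9.2e-10).

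For H3.3, the authors' deposited table had the region upstream of and over the start of Dlk1 (chr12:109443172-109456543) at 211.8 and 246.0 at day 0 and 337.5 and 291.0 at day 6, higher at day 6 by 37.3% (log2 −0.46 for day 0 minus day 6, adjusted p = 0.00633), where 13.9% of 14812 regions were called higher at day 6. The region between Dlk1 and Meg3 (chr12:109526067-109529581) was at 205.9 and 227.0 and then 145.6 and 142.6, higher at day 0 (0.59, adjusted p = 0.00255), and so was a region between Mirg and Dio3 (chr12:109943851-109951920; 0.76, adjusted p = 6.65e-06), where 36.4% of regions were. H3.3 in the region upstream of and over the start of Dlk1 thus went up, while H3K27me3 over Dlk1 went down and H3.3 before Meg3 went down. Chromatin of the edited lines was not measured.

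**Figure D5:**
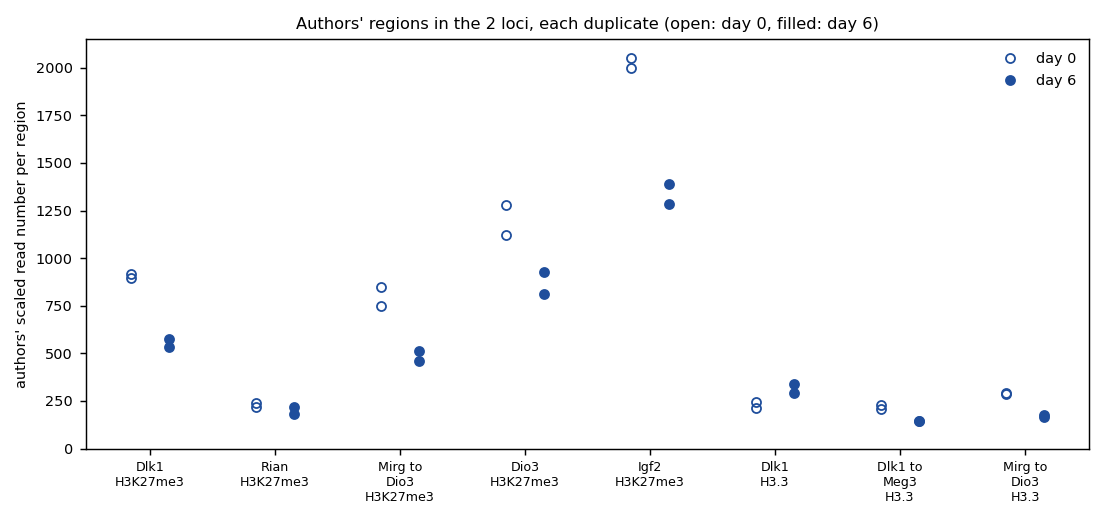
Each point is the authors' scaled read number of 1 duplicate in 1 region, with day 0 open and day 6 filled. The H3K27me3 regions of Dlk1, Dio3 and Igf2 and the region between Mirg and Dio3 are lower at day 6 without overlap, the Rian region overlaps, and H3.3 upstream of and at the start of Dlk1 is higher at day 6.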

How the data were processed

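The submitters' processing notes name STAR 2.5.2a, mm10 and HTSeq; whether HTSeq used strand is not given in the sources used here. The 17 deposited count files hold whole read counts per gene symbol. Reads in no gene (11.3% to 43.3%) and ambiguous reads (7.40% to 11.9%) were left out of library sizes. CPM were computed here with TMM scaling within each year. Tests used edgeR 4.0.16 (filterByExpr, quasi-likelihood, all groups of a year in a single fit, Benjamini-Hochberg over 13593 and 14760 genes, adjusted p below 0.05); all 8 members passed the filter in both years. DESeq2 1.42.0 was an alternative.

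Peaks were called per library with MACS2 2.2.6, per the file headers (p threshold 0.01, minimum length 1000, maximum gap 5000 bases). The deposited peak tables give signal as pileup, fold enrichment as a ratio and −log10 p-values, all the authors' own; filtered peaks are the authors' lists, whose filter is not given in the sources used here. Each of the 16 libraries was sequenced in 3 runs (30449762 to 74229689 tags used). The submitters' processing notes also name DiffBind and DESeq2. The authors' deposited tables of differential regions and genes hold log2 differences and p-values, with per-duplicate signal for regions, and are credited where quoted. Gene positions are from GENCODE vM21, promoters from RefSeq (GRCm38.p6).

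The members and gene lists were chosen with earlier results of these data known. The comparison of the day 0 to day 6 change between the edited lines was chosen after the data were seen. The rule for named genes took all members and, of each list, counts and up to 3 called genes per direction with the largest change; for likeness, the 3 genes outside the members with the highest correlation. Edited against wild type was not tested for members, since it chose them. Replicate numbers did not pair the libraries. Counting intervals and floors cover counting error only. Results on some listed genes are not reported here.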

Additional observations from a re-analysis of the deposited data

Results flagged for a closer look

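The change from day 0 to day 6 differed between H3.3K27A and the H3.3A knockout, by a test of the difference, in Dlk1 (1.55, log2, H3.3K27A minus knockout), Igf2 (1.71) and Rian (1.45). That test was chosen after the data were seen. Both H3.3K27A libraries of day 6 were above both knockout libraries for each of these genes, and Rian, at an edgeR adjusted p of 0.0469, was the nearest to the threshold. As each library was left out, the number of members called ranged from 0 to 5. Dlk1 was lost without knockout day 0 replicate 1 (adjusted p = 0.0601). Igf2 (0.0542 to 0.106) and Rian (0.0815 to 0.161) were each lost without any of several single libraries.

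Some RNAs moved in opposite directions in wild type of 2019 and in a series of 2020, with every library of a series on the same side. These differences between series were not tested. Year, sequencing run and library depth cannot be told apart, and for the edited lines the cell line differs as well. Rian was higher at day 6 in wild type of 2019 and lower in wild type (−0.78), the knockout (−2.24) and H3.3K27A (−0.79) of 2020. Mirg was lower at day 6 in wild type of 2020 (−0.58) and Meg3 in H3.3K27A (−0.25), both opposite to wild type of 2019 and neither past the threshold. Meg3 in wild type of 2020 was at 0.28, in the same direction as in 2019. The summed mesoderm markers of 2019 were 17.5 to 20.7 CPM at day 0 and 1111 to 1317 at day 6. In wild type of 2020 they were 513 and then 324 to 359. Neural markers were 499 to 540 and then 1514 to 1763 in 2019, and 628 and then 302 to 458 in wild type of 2020. Both sums rose in 2019 and fell in wild type of 2020, and the part of these markers in the differences between series was not tested.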

How the results depend on the processing

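Tests of single members kept their side of the threshold under 929 alternatives, gained a call under 20 and lost it under 39; the values that bear on a named gene stand beside it above. With no filter on low counts, or from the libraries of the 2 groups alone, 1 member (H19) was lower at day 6 than at day 3 in 2019, and from 2 groups alone 1 member (Dlk1) was higher in H3.3K27A than in the knockout at day 6. As each library was left out, members called higher ran from 6 to 7, 3 to 4 and 7 to 8 in the 3 comparisons of 2019, and members lower from 0 to 1 between days 3 and 6. In 2020 members higher at day 6 ran from 4 to 6 in wild type, 5 throughout in the knockout and 5 to 6 in H3.3K27A, and members lower from 0 to 1, 1 to 2 and 0 to 1. Between the edited lines at day 6 members higher ran from 2 to 6.

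Replicate numbers were not used as pairs: same-numbered libraries deviated together, at a correlation over 0.1, in 0 of 3 pairs of groups in 2019 and 1 of 10 in 2020 (−0.295 to 0.102). With the replicate block, Rian no longer passed in the comparison of day 6 changes (1.46), Mirg passed between the edited lines at day 6 (1.74), and other imprinted genes lower in the knockout at day 0 went to 0.

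Counts of other imprinted genes were the least steady. From 2 groups alone, 4 were lower in the knockout at day 0, 1 higher and 7 lower in H3.3K27A at day 0, 0 higher and 0 lower in the knockout at day 6, and 8 higher and 6 lower in H3.3K27A at day 6. Without both knockout libraries of day 6, 2 were higher and 7 lower in H3.3K27A at day 0, and 9 and 5 at day 6. In the last comparison 1 was higher with RLE scaling, 2 with DESeq2 and 2 with no filter; DESeq2 also gave 2 higher in the knockout at day 6. Leaving out each library gave 0 to 1 lower in the knockout at day 0, 0 to 1 higher and 0 to 7 lower in H3.3K27A at day 0, 1 to 6 and 3 to 16 in the knockout at day 6, and 0 to 9 and 0 to 5 in H3.3K27A at day 6. The cause was not tested.

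With wild type of 2019 as the comparison, signs turned for Dlk1 at day 0 (1.80 in the knockout, 1.95 in H3.3K27A), Igf2 (0.58 and 0.10 at day 0, and 0.16 in the knockout at day 6) and Rtl1 in H3.3K27A at day 0 (−1.43). As each library was left out, Rtl1 ran from −4.22 (without H3.3K27A day 0 replicate 1) to 1.25 in H3.3K27A against wild type at day 0, and from −1.33 to 0.035 (without knockout day 6 replicate 1) in the knockout against wild type at day 6.

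At an enrichment of at least 5, 0 promoters stayed under H3.3K27me3 or H3K27me3 peaks of day 0 or H3K27me3 peaks of day 6. The share covered in both duplicates was also 0 in both windows at that enrichment, for every antibody and day. The H3K27me3 peaks of day 0 over Igf2 stood at 5.03 and 4.76, so only duplicate 1 passed there. An overlap of 500 bases left 1 promoter under H3K27me3 at day 6, and a promoter window of 3000 bases put 1 under H3.3 at day 6. Without the margin of the windows H3.3K27me3 of day 0 covered 10.7% at Igf2-H19 and H3K27me3 of day 0 covered 3.3% of Dlk1-Dio3. From 1 duplicate at a time, promoters ran from 3 to 4 under either mark at day 0, 2 to 3 under H3K27me3 at day 6 and 0 to 1 under H3.3 at day 6. The covered share of the Dlk1-Dio3 window ran from 7.75% to 8.73% (H3.3K27me3, day 0), 0.831% to 5.90% (day 6), 5.88% to 6.34% (H3K27me3, day 0), 4.25% to 8.99% (day 6), 1.19% to 2.30% (H3.3, day 0), 1.15% to 4.37% (day 6) and 0% to 4.95% (H3, day 6). That of Igf2-H19 ran from 16.9% to 18.7% (H3.3K27me3, day 0), 17.9% to 42.3% (H3K27me3, day 0), 7.93% to 10.4% (H3K27me3, day 6) and 0% to 6.37% (H3.3, day 6). Depth limits Rtl1 and Mirg most, at few counts in the edited lines. The single wild-type library of day 0 in 2020 could not be left out.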
